A study of Oryza sativa Indica Group with 23 samples.

Results

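Heat shock factors and small heat shock proteins are described here in rice roots through 4 genes, the heat shock factors HSF04 and HSF05 and the small heat shock proteins HSP17.4 and HSP18.1. They were found as the probe sets with a single gene in the array annotation whose RefSeq symbol or synonym was one of these names, and 5 of 57194 rice probe sets met this, HSP18.1 having 2. In all, 17905 genes had a probe set of their own. The genes were chosen with the salt results of these arrays known, among them a lower mean of HSF05 in salt over the genotypes and a lower HSP17.4 in salt in FL478. What chose HSF04 and HSP18.1 is not recorded. The group values of all 4 genes are therefore given as a description, with standard errors and without a test.

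The arrays held root RNA of 4 indica rice genotypes under control irrigation and under salt. Pokkali is a salt-tolerant landrace, IR29 a salt-sensitive cultivar, FL478 a tolerant inbred line bred from IR29 and Pokkali, and IR63731 a further breeding line of the study. All plants grew in sand tanks fed with nutrient solution. For salt plants, NaCl and CaCl2 in a molar ratio of 5 to 1 were added from day 22 in 2 steps over 3 days until the reservoir reached 7.4 dS/m, and roots of both treatments were taken on day 30. Each genotype and treatment had 3 arrays except IR29 control, which had 2, giving 11 control and 12 salt arrays. The labels call the arrays of a group biological replicates and do not say how many plants or tanks stand behind a number, so the errors measure the spread between these RNA samples. Whole roots were used, and fewer cells of a type and less RNA per cell cannot be told apart.

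Heat shock factors are transcription factors that bind repeated short motifs in the promoters of chaperone genes. Class A factors carry an activation motif, whereas class B and class C factors lack it. Small heat shock proteins hold unfolding proteins in a soluble state without using ATP, and HSP70 and HSP100 chaperones then refold them. In plants they are best known from heat, but salt, drought and oxidative stress, and seed maturation, also alter their mRNAs. HSF04 is a class A factor also named HSFA4B, HSF05 a class C factor also named HSFC2A, and HSP17.4 and HSP18.1 belong to the cytosolic class I small heat shock proteins. The class names of both factors are synonyms in the gene table.

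The deposited log2 values had medians from 4.31 to 4.41 per array. Of 8 genes known from roots, such as the silicon transporters Lsi1 and Lsi2, 6 were above the array medians on every array, and their summed log2 values were 69.93 to 78.14 in control and 71.56 to 78.77 in salt. Both anther genes were below every array median. Of 3 green tissue genes 2 were above it on every array, with summed values of 14.15 to 18.85 in control and 13.72 to 15.91 in salt, and the light-harvesting gene CAB2R varied from 4.55 to 9.54. Of 6 seed storage genes 1, GLUA-2 at 7.43 to 8.58, was above the median on every array, and the summed values were 23.78 to 25.26 in control and 23 to 24.73 in salt. The 3′ minus 5′ signal of 4 housekeeping transcripts, a measure of RNA integrity, averaged 0.60 in control and 0.69 in salt, with arrays from 0.51 to 0.74 and from 0.49 to 0.87. With this measure as a covariate, the salt change was -1.24 for HSF05 in the mean of 4 genotypes and -2.68 for HSP17.4 in FL478, against -1.31 and -2.72 without it.

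On 3 arrays the genotype did not match its label cleanly. At probe sets that set 1 genotype at least 2 log2 units apart from all others, the other 20 arrays stood 93.3% to 104% of the way to their labelled genotype. FL478 salt 2 stood 42.4% of the way to FL478 and 77.3% of the way to IR63731. IR29 control 1 stood 66.5% of the way to IR29 and 56.7% to IR63731, and FL478 control 3 stood 70.3% of the way to FL478 and 21.9% to IR63731. These 3 arrays are called arrays between genotypes below, and values that move with them are given with and without them.

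HSF05 had lower mean values in salt in all 4 genotypes, by 1.31 log2 units on average (SE 0.24), or 2.48-fold. All 12 salt arrays were below the control mean of their genotype. Without the 3 arrays between genotypes the HSF05 difference was -0.49 in FL478 and 0.09 in IR29, where 1 control array was left. HSF04, the other factor, was higher in salt by 0.15 (SE 0.04), or 1.11-fold. For HSF04, 11 of 12 salt arrays exceeded the control mean of their genotype. How many of all probe sets reach such counts was not computed. HSP17.4 was lower by 0.97 (SE 0.26) on average, 1.96-fold, and most of this was the 6.61-fold lower value in FL478. HSP18.1 differed by -0.41 (SE 0.25) on average and had lower salt means in FL478, IR29 and Pokkali and a higher one in IR63731.

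**Figure D1:**
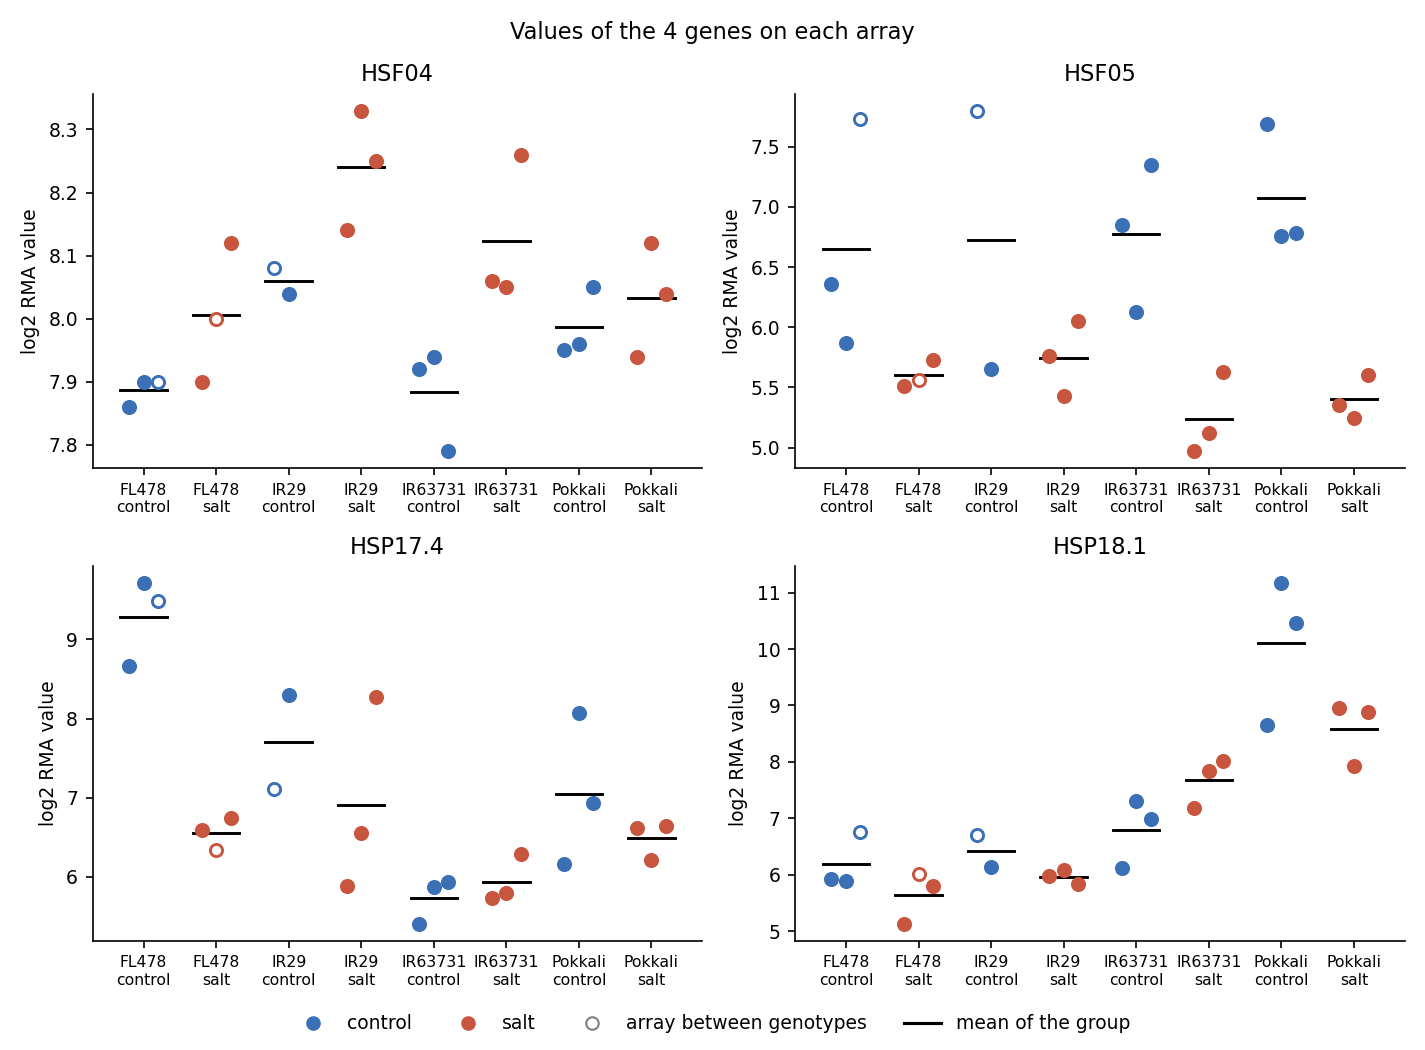
Log2 RMA values of HSF04, HSF05, HSP17.4 and HSP18.1 (its _x_at probe set) on each of the 23 arrays, grouped by genotype and treatment. Points are arrays, lines are group means, and open points are the 3 arrays between genotypes; the vertical axes differ between panels. HSF05 control arrays spread from 5.65 to 7.80, while its salt arrays lay between 4.97 and 6.05.

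HSF05 varied widely between control plants. In FL478 control its values were 6.36, 5.87 and 7.73, and in FL478 salt 5.51, 5.56 and 5.73. In IR29 they were 7.80 and 5.65 in control and 5.76, 5.43 and 6.05 in salt. All FL478 salt arrays were below all FL478 control arrays, whereas the IR29 treatments overlapped. IR63731 had 6.85, 6.13 and 7.35 in control and 4.97, 5.12 and 5.63 in salt. Pokkali had 7.69, 6.76 and 6.78 in control and 5.35, 5.25 and 5.60 in salt. In both of these genotypes the treatments did not overlap. The differences were -1.05 (SE 0.47) in FL478, -0.98 (SE 0.52) in IR29, -1.54 (SE 0.47) in IR63731 and -1.68 (SE 0.47) in Pokkali. The same separation, every salt array below every control array, was met by 7.03% of all probe sets in FL478, 8.29% in IR63731 and 6.92% in Pokkali.

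The highest HSF05 value of FL478 control and that of IR29 control both came from arrays between genotypes. Without the 3 arrays the mean of FL478 control was 6.12 against 5.62 in salt, a difference of -0.49 (SE 0.36). The single IR29 control array left had 5.65 against a salt mean of 5.74, a difference of 0.09 (SE 0.42). IR63731 and Pokkali hold none of these arrays and kept -1.54 and -1.68, and the mean of 4 genotypes was -0.90 (SE 0.17). The group means of HSF05 ran from 7.08 in Pokkali control through 6.78 in IR63731, 6.73 in IR29 and 6.65 in FL478 control to 5.74 in IR29, 5.60 in FL478, 5.40 in Pokkali and 5.24 in IR63731 salt. Each neighbouring pair in this order had overlapping arrays.

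The rule for the 4 genes reads them over genotype and treatment, and whether replicate number played a part in proposing them is not recorded. The p values between numbers are given with that limit, from a fit with the number as a block. HSF05 was higher by 0.79 (SE 0.24) in arrays numbered 3 than in those numbered 2, with an unadjusted p of 0.00455 and an adjusted p of 0.0639 in limma, so it did not pass. With probe sets under the median left out of the adjustment the same difference had an adjusted p of 0.0446. Of all probe sets 6.15% passed in this comparison. The differences were 0.02 for HSF04, 0.20 for HSP17.4 and 0.15 for HSP18.1, with adjusted p values of 0.872, 0.767 and 0.849. None of the 4 genes passed between numbers 2 and 1 or between numbers 3 and 1, where 2.83% and 1.38% of probe sets passed. HSP17.4 was higher by 0.79 in number 3 than in number 1 (SE 0.26, adjusted p = 0.136).

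HSF04 was nearly flat over the series. Its 23 values lay between 7.79 and 8.33, and its spread within groups, a pooled SD of 0.08, was exceeded or matched by that of 97.7% of probe sets. FL478 had 7.86, 7.90 and 7.90 in control and 7.90, 8.00 and 8.12 in salt. IR29 had 8.08 and 8.04 in control and 8.14, 8.33 and 8.25 in salt. Salt and control overlapped in FL478 and did not in IR29. IR63731 had 7.92, 7.94 and 7.79 in control and 8.06, 8.05 and 8.26 in salt, again without overlap. Pokkali had 7.95, 7.96 and 8.05 in control and 7.94, 8.12 and 8.04 in salt, with overlap.

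The salt differences of HSF04 were 0.12 (SE 0.08) in FL478, 0.18 (SE 0.09) in IR29, 0.24 (SE 0.08) in IR63731 and 0.04 (SE 0.08) in Pokkali. Every salt array lay above every control array for 10.5% of all probe sets in IR29 and 6.59% in IR63731. The 8 group means of HSF04 spanned 0.36, close to the median span of 0.33 over all probe sets, with IR29 salt highest at 8.24 and IR63731 control lowest at 7.88. Among neighbours in the order of means, only Pokkali control (7.99) and FL478 control (7.89) had arrays that did not overlap. How common such a gap is among all probe sets was not computed. Leaving out the 3 arrays between genotypes moved no HSF04 difference by more than 0.02.

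HSP17.4 was high in FL478 control plants and lower in FL478 salt plants. Its values were 8.66, 9.71 and 9.48 in FL478 control and 6.59, 6.34 and 6.74 in FL478 salt, without overlap. In FL478 7.03% of all probe sets had every salt array below every control array. IR29 had 7.11 and 8.30 in control and 5.89, 6.55 and 8.27 in salt, where the third array was as high as the higher control. Pokkali had 6.16, 8.07 and 6.93 in control and 6.62, 6.21 and 6.64 in salt. IR63731 was low throughout, with 5.41, 5.87 and 5.94 in control and 5.73, 5.80 and 6.29 in salt. In IR29, Pokkali and IR63731 the treatments overlapped.

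The salt difference of HSP17.4 was -2.72 (SE 0.50) in FL478, a 6.61-fold lower value. It was -0.80 (SE 0.55) in IR29, -0.57 (SE 0.50) in Pokkali and 0.20 (SE 0.50) in IR63731. Without the 3 arrays between genotypes the difference was -2.52 (SE 0.62) in FL478 and -1.40 (SE 0.71) in IR29, where 1 control array was left. Leaving out IR29 salt 3 gave -1.49 in IR29, and leaving out IR29 control 2 gave -0.21. In Pokkali the difference was -0.06 without control 2 and -1.01 without control 1.

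The salt difference in FL478 minus that in IR63731 was -2.93 (SE 0.70) for HSP17.4. Against Pokkali it was -2.16 (SE 0.70) and against IR29 -1.92 (SE 0.74). The last of these was -1.12 (SE 0.95) without the 3 arrays.

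In control plants FL478 exceeded the mean of the other 3 genotypes by 2.45 for HSP17.4 (SE 0.41), or 5.46-fold, and by 2.15 (SE 0.51) without the 3 arrays. Both parents of FL478 had lower control means, 7.70 (SD 0.84, n = 2) in IR29 and 7.05 (SD 0.96, n = 3) in Pokkali against 9.28 (SD 0.56, n = 3) in FL478. The excess was 1.58 (SE 0.55) over IR29 and 2.23 (SE 0.50) over Pokkali. Over IR29 it was 0.88 (SE 0.76) without the 3 arrays. In salt plants FL478 stood at 6.56, with 6.90 in IR29 and 6.49 in Pokkali, and the arrays of these groups overlapped. FL478 control was the only group of the 8 whose arrays did not overlap with those of the next group in order. That next group, IR29 control, had 2 arrays, among them IR29 control 1, an array between genotypes. How common such a gap is among all probe sets was not computed. HSP17.4 was chosen with its lower value in FL478 salt known, and the FL478 control level is a part of that difference.

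**Figure D2:**
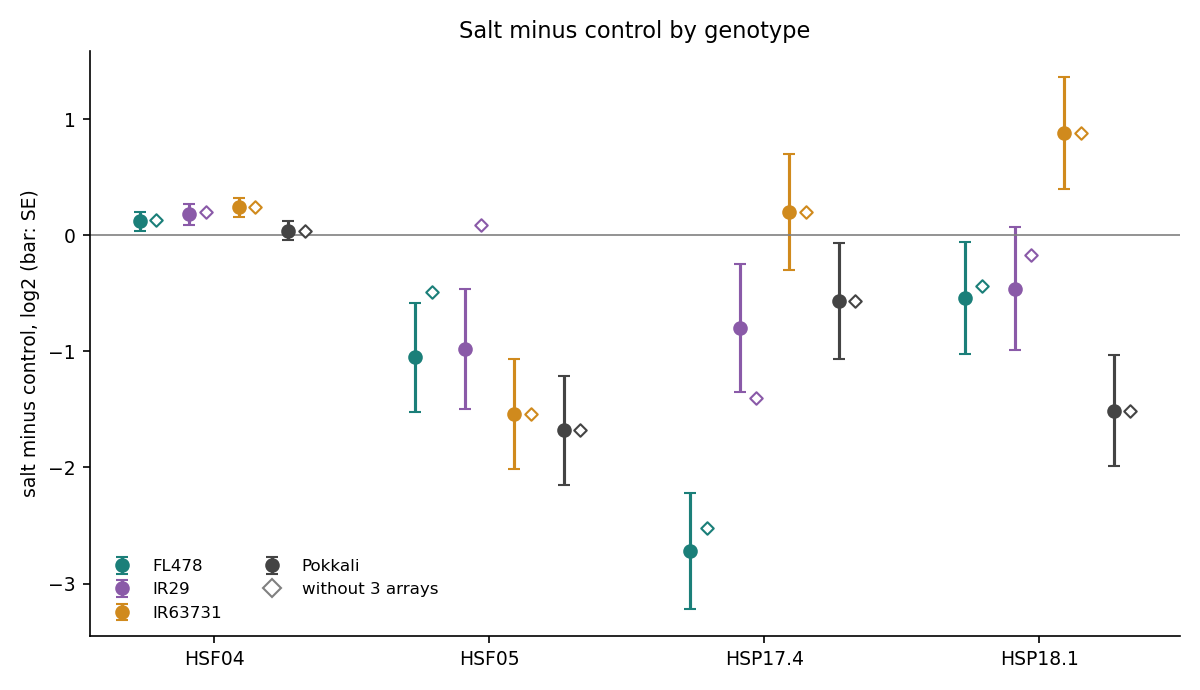
Salt minus control on the log2 scale for the 4 genes in each genotype. Filled points are the fitted differences with their standard errors, and open diamonds are the differences without the 3 arrays between genotypes. HSP17.4 in FL478 had the largest difference of the 16 at -2.72, and HSF05 in IR29 went from -0.98 to 0.09 without these arrays.

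HSP18.1 was set apart by genotype more than by treatment. On its _x_at probe set Pokkali had 8.66, 11.17 and 10.47 in control and 8.95, 7.93 and 8.88 in salt. IR63731 had 6.11, 7.30 and 6.99 in control and 7.19, 7.84 and 8.02 in salt. The treatments overlapped in both genotypes, with IR63731 salt on the high side and Pokkali salt on the low side of their controls. FL478 had 5.92, 5.88 and 6.75 in control and 5.13, 6.01 and 5.80 in salt. IR29 had 6.70 and 6.13 in control and 5.97, 6.09 and 5.83 in salt. FL478 overlapped, while in IR29 every salt array was below both control arrays, as it was for 12.5% of all probe sets.

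Pokkali control plants exceeded the mean of the other 3 genotypes by 3.63 for HSP18.1 (SE 0.40), or 12.4-fold, and Pokkali salt plants by 2.16 (SE 0.39), or 4.46-fold. All 3 Pokkali control arrays were above all control arrays of the other genotypes, whereas Pokkali salt 2, at 7.93, was below IR63731 salt 3 at 8.02. How many of all probe sets separate Pokkali control in this way was not computed. FL478, which descends from Pokkali and IR29, had values of 5.13 to 6.75, which overlapped those of IR29 at 5.83 to 6.70. A probe set can also differ between genotypes where their sequences match its probes unequally, and this was not tested.

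Within replicate numbers, which pair in IR63731, the salt differences of HSP18.1 there were 1.08, 0.54 and 1.03 in the order of the numbers. In FL478, where numbers also pair, they were -0.79, 0.13 and -0.95. All 3 pairs of IR63731 had the salt array higher, and 2 of 3 pairs of FL478 had it lower.

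The salt differences of HSP18.1 were -0.54 (SE 0.48) in FL478, -0.46 (SE 0.53) in IR29, 0.88 (SE 0.48) in IR63731 and -1.51 (SE 0.48) in Pokkali. In Pokkali the value was -2.24 without control 1 and -0.98 without control 2. It was -0.44 (SE 0.59) in FL478 and -0.17 (SE 0.68) in IR29 without the 3 arrays. The _x_at suffix marks probes that can also bind related transcripts, so the second probe set of the gene, which lacks it, was read beside it. There the differences were -1.12 (SE 0.67), -0.65 (SE 0.75), 0.89 (SE 0.67) and -1.59 (SE 0.67) in the same order of genotypes. Pokkali had 8.59, 11.09 and 10.30 in control and 8.68, 7.97 and 8.55 in salt there, and FL478 had 4.69, 5.60 and 6.42 in control and 3.38, 5.59 and 4.38 in salt. On the second probe set 1 of the 3 FL478 salt arrays was above the control mean, and the IR29 treatments overlapped. The IR29 difference there was 0.14 (SE 0.84) without the 3 arrays. Both probe sets followed each other with r = 0.962 over the 23 arrays, which share the 2 treatments and 4 genotypes. In salt, the _x_at value exceeded the second by 0.42 to 1.75 in FL478 and 0.83 to 1.66 in IR29. That gap was -0.58 to 0.35 in IR63731 salt and -0.04 to 0.33 in Pokkali salt. The salt means on the second probe set, 4.45 in FL478 and 4.75 in IR29, were near the array medians of 4.31 to 4.41, so a change could be missed.

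In the order of group means Pokkali control stood at 10.1 for HSP18.1, followed by Pokkali salt at 8.59, IR63731 salt at 7.68 and IR63731 control at 6.80. IR29 control at 6.42, FL478 control at 6.18, IR29 salt at 5.96 and FL478 salt at 5.65 came after these. Neighbouring groups overlapped throughout on the _x_at probe set. On the second probe set Pokkali salt (8.40) and IR63731 salt (7.71) did not overlap, a gap whose share over all probe sets was not computed. The span of group means was 4.46 on the first and 5.54 on the second probe set, and 0.313% and 0.114% of all probe sets had spans at least as wide. The corresponding shares were 0.64% for HSP17.4 with a span of 3.54, 3.19% for HSF05 with 1.84 and 45.6% for HSF04. HSF05 and HSP17.4 were chosen with salt results of these same groups known, and the choice of the others is not recorded. These shares therefore only describe the spans and are not a test.

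HSP17.4 and HSP18.1 lie next to each other on chromosome 3 in the RefSeq gene table of a japonica assembly, with 0 genes between them. HSP17.7, another small heat shock protein gene, follows HSP18.1 directly, and HSP17.9A lies on the other side of HSP17.4 with 4 genes between. The high groups differed within this run. HSP17.4 was highest in FL478 control and HSP18.1 in Pokkali control. HSP17.7 had 9.75, 10.18 and 9.86 in FL478 control and 9.97, 10.37 and 10.30 in Pokkali control, within the 9.62 to 10.44 of all its arrays. HSP17.9A ranged from 7.57 to 9.52 and was highest in IR29 salt at 9.40, 9.46 and 9.52.

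The salt change of HSP17.7 was 0.18 in the mean of 4 genotypes (SE 0.08, adjusted p = 0.222 in limma) and that of HSP17.9A 0.46 (SE 0.18, adjusted p = 0.139). Neither passed. With the replicate number as a block HSP17.9A had 0.47 and an adjusted p of 0.0067. In FL478 alone, where HSP17.4 differed by -2.72, HSP17.7 differed by 0.31 (SE 0.16, adjusted p = 0.432) and HSP17.9A by 0.39 (SE 0.35, adjusted p = 0.744). In Pokkali control plants HSP17.7 exceeded the mean of the other genotypes by 0.39 (SE 0.13, adjusted p = 0.103) and HSP17.9A by 0.10 (SE 0.29, adjusted p = 0.913). The replicate block changed the first call, with an adjusted p of 0.0207 for HSP17.7.

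**Figure D3:**
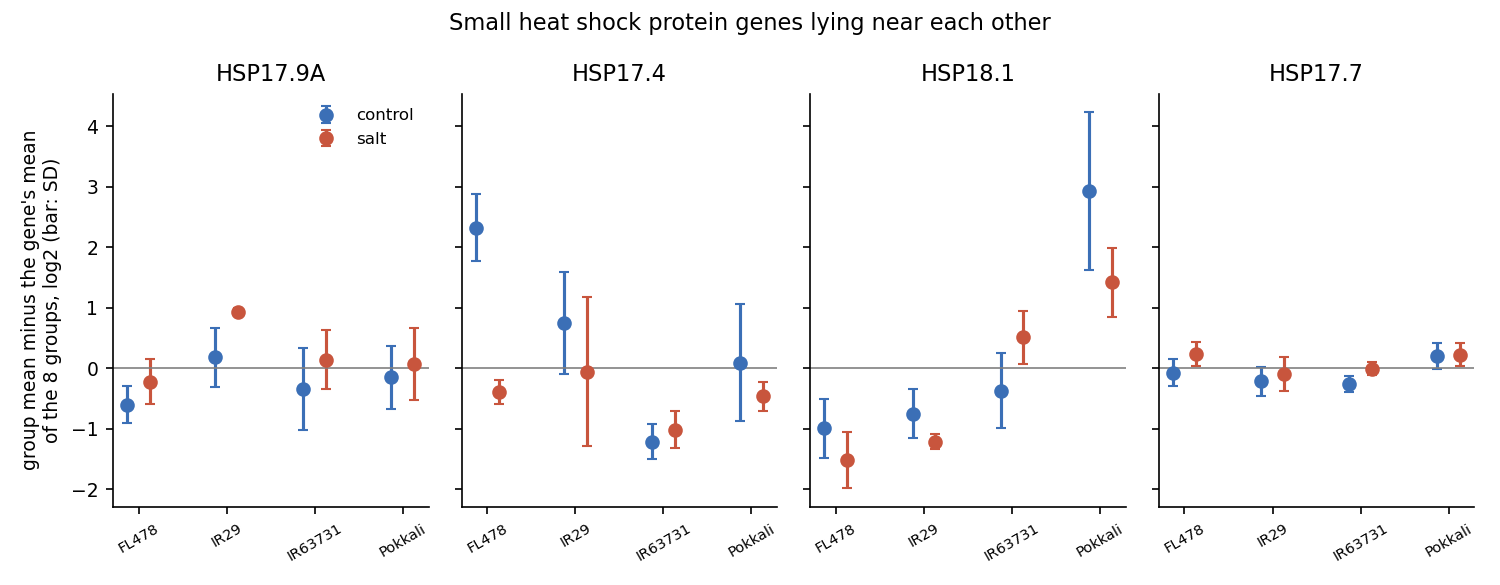
Group means of HSP17.9A, HSP17.4, HSP18.1 and HSP17.7, in the order of the genes along the chromosome, each minus the mean of its own 8 groups on the log2 scale. Bars are SD over the 2 or 3 arrays of a group. HSP17.4 stands out in FL478 control and HSP18.1 in Pokkali, while the group means of HSP17.7 stay close to its overall mean.

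No pair of the 4 genes passed a test of whether they varied together within groups. Deviations of the arrays from their group means were correlated for the 6 pairs of genes over 23 arrays. HSP17.4 and HSP18.1 had r = 0.407 and rho = 0.370, with two-sided permutation p values of 0.157 and 0.129 and adjusted p values over the 6 pairs of 0.916 and 0.776. Their r was 0.578 without the 2 arrays farthest from the median of HSP17.4, 0.518 without the 3 arrays between genotypes and 0.150 with the replicate number also removed. Both were positive deviations or both negative on 13 of 23 arrays. The other 5 pairs had r between -0.194 and 0.140, with adjusted p values of at least 0.916 for r and 0.885 for rho. HSF05 and HSP17.4 had r = -0.194, and HSF04 and HSF05 had r = -0.00416.

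Among named genes that varied over the arrays (SD of at least 0.5 log2 units), 5 were taken for each gene by their correlation with it over the 23 arrays. These values share genotype and treatment and are a description. For HSF05 they were the trehalose-6-phosphate phosphatases TPP9 (r = 0.862) and TPP2 (r = 0.856), the auxin carrier PIN5a (0.826), the nucleoredoxin Nrx1-1 (0.808) and the transcription factor WRKY62 (0.784). After removal of the group means r was 0.891 for TPP9, 0.698 for TPP2 and 0.769 for PIN5a. TPP9 had 8.75, 8.67 and 9.27 in FL478 control and 9.56 and 8.27 in IR29 control, so the arrays high for HSF05 were also high for TPP9. In FL478 salt it had 7.93, 7.85 and 8.09, and in IR29 salt 7.94, 7.81 and 8.45. IR63731 had 8.96, 8.94 and 9.32 in control and 8.19, 8.14 and 8.41 in salt. Pokkali had 8.92, 8.23 and 8.71 in control and 7.85, 7.86 and 8.15 in salt, again without overlap. In Pokkali 6.92% of all probe sets met this separation. Without the 3 arrays between genotypes, and without the IR29 control array then left alone, r between HSF05 and TPP9 within groups was 0.764 over 19 arrays.

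**Figure D4:**
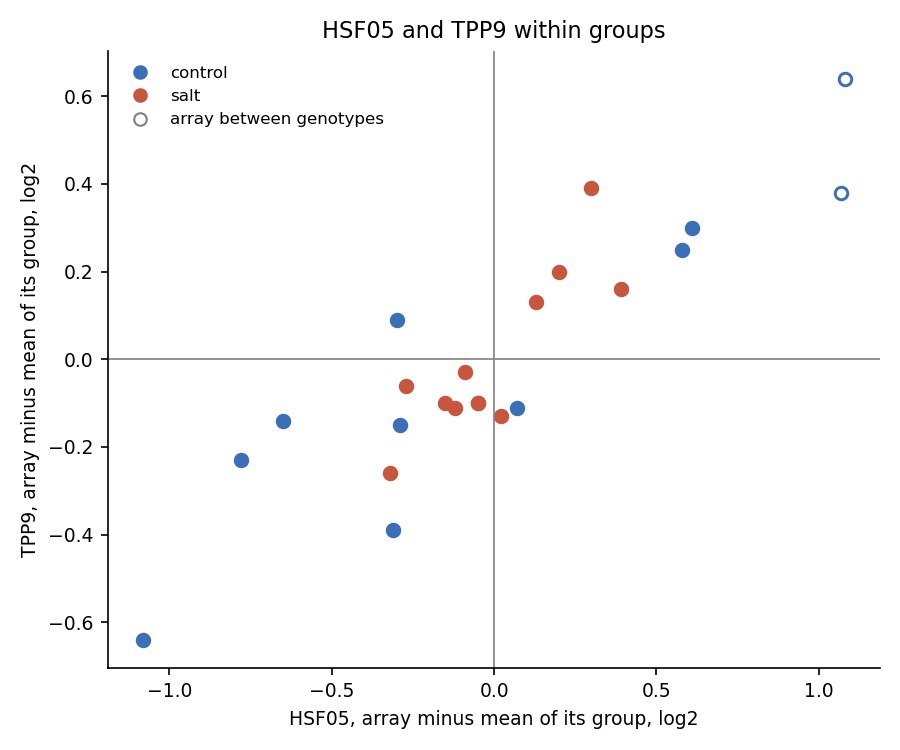
Deviation of each of the 23 arrays from the mean of its group for HSF05 (horizontal) and TPP9 (vertical), both on the log2 scale. Open points are arrays between genotypes. The points run from the lower left, where IR29 control 2 lies at -1.08 and -0.64, to the upper right, with r = 0.891. IR29 control 1 and FL478 control 3 lie at the upper right. IR29 control has 2 arrays, so their deviations are equal and opposite by construction. TPP9 was taken for its high r with HSF05 over these same arrays.

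For HSP17.4 the list was the allene oxide synthase AOS3 (r = 0.824), the germin-like genes GER6 (0.780) and GER7 (0.707), PM19L1 (0.731) and SPX2 (0.703), a gene of the phosphate-sensing SPX family. AOS3 had 6.83, 6.72 and 6.45 in FL478 control and 5.20, 4.50 and 4.96 in FL478 salt. Its arrays there did not overlap, a separation met by 7.03% of all probe sets. In IR63731 it had 5.01, 5.22 and 5.31 in control and 4.39, 4.39 and 4.93 in salt. For HSP18.1 the list was PDIL1-3 (0.830), a protein disulfide isomerase-like gene, NtrC (0.790), CSFL8 (0.733), the chitinase gene Cht11 (0.728) and ORC5 (0.720). For HSF04 it was the inositol phosphate kinase gene ITPK1 (0.746), HSP17.9A (0.729), CASPL2D1 (0.700), TLP3 (0.649) and ICS (0.629). Over the 8 group means r for HSF04 was 0.953 with HSP17.9A and 0.923 with ITPK1, and within groups 0.338 and 0.00686.

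The wider heat shock system was read from 68 other genes found by name. In the mean of 4 genotypes 5 of the 68 were higher in salt, 0 were lower and 63 did not pass, by limma with adjustment over all probe sets. At an unadjusted p under 0.05 there were 22. The share passing, 7.35%, was near the 8.31% of all probe sets, of which 4.95% were higher and 3.36% lower, and the median change was 0.06 against -0.01 over all probe sets. Blocking on replicate number raised the calls over all probe sets to 4195 higher and 2919 lower, from 2830 and 1923. In the list that fit gave 9 higher and 2 lower. Those higher in addition were HSF03, HSP17.9A, HSP81-3 and APX1, and those lower were HSF08 and HSP21.9. Without the 3 arrays between genotypes 4 were higher, HSF19 missing with an adjusted p of 0.0536, and 1 was lower, HSF25 at -0.74 (adjusted p = 0.0466). The gene records of HSF08 and HSF25 also carry names of another gene, so which transcript their probe sets measure is uncertain. In the limma fit of all arrays without the block, the second probe set of HSF25 changed by -0.01 (SE 0.22, adjusted p = 0.991). That of HSF08 changed by 0.17 (SE 0.11, adjusted p = 0.444), with group means of 3.13 to 3.96, under the lowest array median of 4.31.

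Of 18 other heat shock factors 1 was higher and 17 did not pass. This was HSF19, a class B factor also named HSFB4B, which rose by 0.55 (SE 0.12, adjusted p = 0.00593). Its values were 6.30, 7.15 and 6.90 in FL478 control and 7.47, 7.94 and 7.97 in FL478 salt. These come from an _x_at probe set, and the second probe set of HSF19 did not pass, with 0.17 in the mean of 4 genotypes (SE 0.06, adjusted p = 0.102) and 0.24 in FL478 (SE 0.12, adjusted p = 0.428). The other factors lay between -0.50 and 0.59, the upper end being HSF03, a class C factor like HSF05, with an adjusted p of 0.189. Of 17 other small heat shock proteins 0 passed in either direction by limma, and 6 had an unadjusted p under 0.05. Their changes had a median of -0.10 and ran from -0.40 for HSP23.2 to 0.46 for HSP17.9A.

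Among the larger chaperones CLPB1, the HSP101 disaggregase, rose by 0.58 (SE 0.07, adjusted p = 4.95e-05) and passed under all 32 alternatives. It had 5.63, 5.94 and 5.57 in FL478 control and 6.62, 6.61 and 6.59 in FL478 salt. In Pokkali it had 6.20, 6.54 and 6.28 in control and 6.62, 6.62 and 6.99 in salt. Salt and control did not overlap in either genotype. The share of all probe sets with every salt array above every control array is not given for these genotypes. In IR63731, with as many arrays, it was 6.59%. The other 2 genes of this group, the organellar CLPB-C and CLPB-M, did not pass. HSP81-2, an HSP90 gene, rose by 0.21 (SE 0.04, adjusted p = 0.00304), and 2 further HSP90 genes did not pass.

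Among 5 DnaJ cochaperones DJA6 rose by 0.52 (SE 0.12, adjusted p = 0.0122), and in the unfolded protein response 1 of 15 genes, PDIL1-2, a protein disulfide isomerase-like gene, rose by 0.38 (SE 0.08, adjusted p = 0.00538). Neither of 2 BiP genes passed, the higher being BIP4 at 0.06. The group means of BIP4 ran from 2.76 to 3.00, under the lowest array median of 4.31, so a change could be missed. SGT1, the only cochaperone regulator found, stood at 0.00. Of 4 genes known in Arabidopsis as targets of heat shock factors 0 passed, 1 had an unadjusted p under 0.05, and APX1 had the highest value at 0.19 (adjusted p = 0.060). No chaperonin was found by name.

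**Figure D5:**
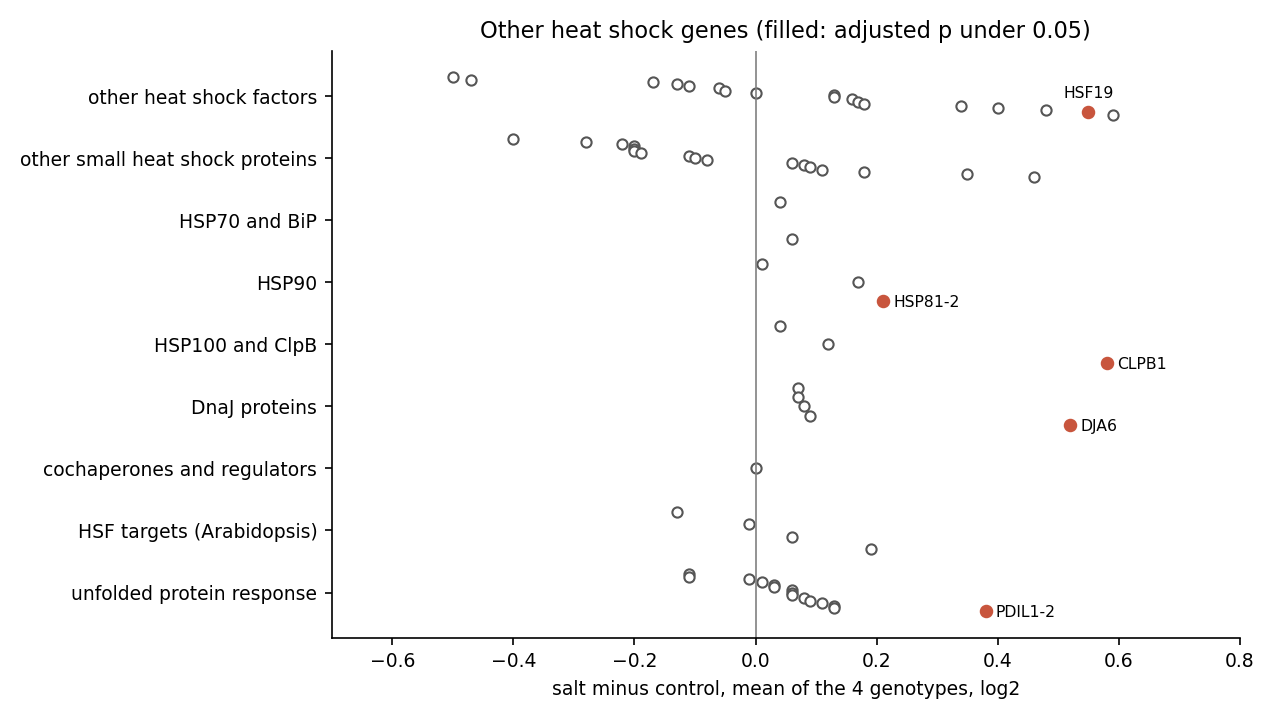
Salt minus control in the mean of 4 genotypes, on the log2 scale, for the 68 other heat shock genes by group. Filled points passed an adjusted p of 0.05 in limma and are named. All 5 of these lie to the right of 0, between 0.21 and 0.58.

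In single genotypes, FL478 had 2 of the 68 genes higher in salt, CLPB1 by 0.90 (SE 0.14, adjusted p = 0.0038) and HSF19 by 1.01 (SE 0.23, adjusted p = 0.0371), and 0 lower. With the replicate block, whose numbers pair in FL478, 3 passed, the third being APX1 at 0.43 (adjusted p = 0.024, against 0.0805 without the block). Over all probe sets the block gave 897 higher and 713 lower in FL478, against 303 and 246 without it. Without the 3 arrays between genotypes neither CLPB1 nor HSF19 passed, with adjusted p values of 0.073 and 0.192. IR29, IR63731 and Pokkali had 0 genes passing in limma, with 3, 9 and 7 at an unadjusted p under 0.05. In the fit of all arrays without the block 0.96% of all probe sets passed in FL478, 0.343% in IR29, 0.0717% in IR63731 and 0.341% in Pokkali. The difference of the salt change between genotypes, tested for each of 6 pairs, was called for 0 of 68 genes in limma, with 4, 5 and 4 at an unadjusted p under 0.05 for FL478 against IR29, IR63731 and Pokkali. For IR29 against IR63731 and Pokkali there were 0 and 3, and for IR63731 against Pokkali 4. Over all probe sets 0.00175%, 0.0035% and 0.00525% passed in the first 3 pairs and 0.0% in each of the others.

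The genotype contrasts in which HSP18.1 and HSP17.4 stood apart were also read over the 68 genes, a step added after the values of both were seen. In control plants Pokkali had 3 higher and 1 lower, 5.88% against 5.53% of all probe sets. PDIL1-3 was higher by 1.88 (SE 0.21, adjusted p = 8.94e-06), with 7.38, 7.70 and 7.20 in Pokkali and at most 6.47 in the other control arrays. HSF07, a class A factor also named HSFA3, was higher by 2.09 (SE 0.51, adjusted p = 0.0191), and without the 3 arrays by 1.92 (adjusted p = 0.0694). CLPB1 was higher by 0.56 (adjusted p = 0.00415).

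The gene lower in Pokkali control was the small heat shock protein gene HSP18.8, by -0.83 (SE 0.14, adjusted p = 0.000714). In salt plants PDIL1-3 was higher by 2.09 (SE 0.21, adjusted p = 1.51e-06) and HSP18.8 differed by -0.49 (SE 0.13, adjusted p = 0.0421), and the latter passed under 14 of 31 alternatives. Of all probe sets 4.58% passed in salt plants. In FL478 control plants 1 of the 68 genes passed, DJA6, which was lower, at -0.86 (SE 0.20, adjusted p = 0.0242), against 2.65% of all probe sets.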

How the data were processed

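The 23 arrays were Affymetrix rice arrays of root RNA. The authors deposited log2 values, and the submitters' processing notes name RMA as their method. Its version and software, and how probe sets were defined, are not given in these sources. From 57381 probe sets, 123 controls and 64 reporters were left out. Names came from the array annotation and the RefSeq gene table of ASM3414082v1, a japonica assembly, in which all 22436 probe sets with a single gene were found. No sequence was used here, and no coordinates are printed.

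The limma model (limma 3.58.1, R 4.3.3) held a mean for each of the 8 groups, with Benjamini-Hochberg adjustment over 57194 probe sets at 0.05. The test was checked on simulated data. Where a gene had several probe sets, the brightest on average stood for it. The 4 genes and the lists were chosen with earlier results of these data known. The text names, per list, the 2 largest changes each way that passed in the mean of 4 genotypes, or the largest value, and the 5 genes most like each of the 4. Further list genes were named after their values were seen. Correlations used 100000 permutations within groups in Python 3.11.15.

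Replicate numbers were checked for pairing by correlating deviations of control and salt arrays of a number, with a minimum of 0.1. FL478 gave 0.421, 0.197 and 0.287, IR63731 0.142, 0.296 and 0.252, IR29 -0.179 and 0.119, and Pokkali -0.066, -0.0156 and 0.316. The numbers were thus taken as paired in FL478 and IR63731. The number of arrays limits the precision.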

Additional observations from a re-analysis of the deposited data

Results flagged for a closer look

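The mean of HSP18.1 was higher in salt than in control in IR63731 and lower in FL478, IR29 and Pokkali. In FL478 and IR29 the differences, -0.54 (SE 0.48) and -0.46 (SE 0.53), were about the size of their standard errors. In IR63731 all 3 salt arrays were above the control mean, and in FL478, IR29 and Pokkali all 3 salt arrays of each were below it. How many of all probe sets reach such counts was not computed. The salt change of FL478 minus that of IR63731 was -1.42 (SE 0.68), and that of IR29 minus IR63731 was -1.34 (SE 0.72). Without the 3 arrays between genotypes these were -1.32 and -1.05. The change of IR63731 minus that of Pokkali was 2.39 (SE 0.68). These differences were not tested, because what chose the gene is not recorded and its group values may have played a part. On the second probe set of HSP18.1, 1 of 3 FL478 salt arrays was above the control mean. The IR29 difference there was 0.14 without the 3 arrays. No array was singled out by its distance from its group, since that check needs groups of at least 4 samples and these held 2 or 3.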

How the results depend on the processing

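Alternatives were a replicate block, leaving out each array or the 3 arrays between genotypes, quantile normalization again, an RNA quality covariate, a filter at the median, eBayes with trend and robust, array weights, leaving out _s_at and _x_at probe sets, the mean of a gene's probe sets, and only the arrays compared. Of 1329 values, 1279 kept their direction and side of the threshold or moved by less than the replicate spread. The HSF05 difference in IR29, -0.98 in the report, changed sign to 0.09 without the 3 arrays or without IR29 control 1. A further 21 values that passed no test changed sign. With number also removed these were the correlations within groups of HSF04 with HSF05 (0.00901), HSP17.4 (-0.263) and HSP18.1 (-0.171), and without the 3 arrays that of HSF05 with HSP18.1 (-0.371). With single arrays left out, the correlation ran from -0.122 to 0.104 for HSF04 with HSF05, -0.0502 to 0.222 for HSF04 with HSP17.4, -0.384 to 0.0103 for HSF05 with HSP17.4 and -0.125 to 0.391 for HSF05 with HSP18.1, and the difference between numbers 3 and 2 from 0.00 to 0.06 for HSF04, -0.06 to 0.41 for HSP17.4 and -0.03 to 0.37 for HSP18.1. In the mean of 4 genotypes, salt changes of the members ran from 0.11 to 0.16 for HSF04, -1.58 to -0.90 for HSF05, -1.14 to -0.82 for HSP17.4 and -0.62 to -0.27 for HSP18.1. For HSP17.4 in FL478 they ran from -3.04 to -2.51. Wider-list genes higher in salt in FL478, 2 in the report, were 3 with the replicate block, 0 without the 3 arrays or with only the arrays compared, 1 after quantile normalization again, with the RNA quality covariate, without _s_at and _x_at probe sets or with the mean of a gene's probe sets, and 1 to 2 with single arrays left out. In the mean of 4 genotypes the replicate block gave 9 higher and 2 lower in place of 5 and 0. Lower genes numbered 1 without the 3 arrays, 1 with the median filter, and 0 to 1 with single arrays left out. The replicate-number difference of HSF05 passed at 0.79 with the median filter, and ran from 0.61 to 0.95 with single arrays left out, passing without FL478 salt 2 (0.89) or Pokkali control 3 (0.95). The causes were not tested. Wider-list salt counts in IR29, IR63731 and Pokkali stayed at 0 with the replicate block. Over all probe sets the block raised the salt counts. Higher and lower probe sets went from 2830 and 1923 to 4195 and 2919 in the mean of 4 genotypes. They went from 303 and 246 to 897 and 713 in FL478 and from 95 and 101 to 234 and 223 in IR29. In IR63731 they went from 17 and 24 to 106 and 93, and in Pokkali from 92 and 103 to 515 and 416. Promoter motifs of the members could not be searched, as no sequence was used here.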
